A study of Mus musculus with 10 samples.

Results

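The genes described encode giant and scaffold proteins of the skeletal muscle sarcomere: titin (*Ttn*), nebulin (*Neb*), the alpha-actinins of the Z-disc (*Actn2*, *Actn3*), the Z-disc adaptor *Ldb3*, the myomesins of the M-band (*Myom1*, *Myom2*, *Myom3*) and the slow-type myosin binding protein C (*Mybpc1*). They were chosen by gene symbol in the deposited table, which matched 9 of its 55359 genes, 1 entry for each symbol. All 9 passed the filter for testing, a mean of at least 0.5 FPKM (fragments scaled to transcript length and library size) over all libraries, which 13548 genes passed.

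The sarcomere is the contractile unit of striated muscle. Actin thin filaments are anchored at its borders, the Z-discs, by alpha-actinin, and nebulin runs along them in skeletal muscle. Titin is a single giant protein that spans from the Z-disc to the M-band in the middle of the sarcomere, where myomesins cross-link the myosin thick filaments, and it acts as a spring and as a scaffold during assembly. Because titin and nebulin proteins are giant, their mRNAs are among the longest that a muscle cell makes.

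C2C12 is a mouse myoblast line that fuses into myotubes when serum is withdrawn. By the sample labels, both groups were C2C12 cells grown in DMEM with 20% fetal bovine serum, given 100 nM of siRNA and differentiated for 4 days in medium with 2% horse serum. The paper's methods give a lower share of fetal bovine serum for C2C12 cells. One group of 5 libraries received an siRNA directed at *Fndc1*, which encodes a secreted protein with fibronectin type III domains (si-*Fndc1*), and the other 5 received a scrambled siRNA (si-Control). The text of the series places the harvest 48 h after transfection instead. The paper's methods say in general terms that experiments were repeated independently, but nothing ties that to these libraries. The p-values therefore measure the spread between the libraries as deposited, which may be technical. The knockdown was partial at the level of mRNA: *Fndc1* had 27.8 ± 2.04 FPKM in si-Control and 20.9 ± 1.70 FPKM in si-*Fndc1* (SD, n = 5 each), the groups did not overlap, and the log2 fold change was -0.40 (SE 0.07, edgeR adjusted p = 0.000934). It was called lower in all 23 alternatives to this fit. The value was -0.45 to -0.36 with single libraries left out, and -0.23 where it was weakest.

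Control libraries held 66771605 to 75995168 counts, and si-*Fndc1* libraries 56332844 to 72839369. Of the myotube markers, all 15 examined passed the filter and their summed level spanned 7297 to 7662 FPKM in the control libraries and 7615 to 8370 FPKM in the others. The sum rests on the most abundant of them, and *Mylpf* alone had a mean of 1971 FPKM in si-Control and 2619 FPKM in si-*Fndc1*. The median log2 fold change of the 15 was -0.04. Transcripts of hepatocytes, which the labels do not mention, moved with the groups. Of 12 hepatocyte markers, 11 were tested and all 11 were higher in si-*Fndc1*, with a summed level of 0.0454 to 5.99 FPKM in si-Control against 47.5 to 170 FPKM, which was at most 0.0338% of the counts of a library, and their part in the results for the scaffold was not tested. Those with the smallest p were *Apoa2*, *Ahsg* and *Apoa1*, which encode plasma proteins. Most of the 11 had a control mean under the level of the filter and passed it through their level in si-*Fndc1*. The filter thus favoured markers that were higher in si-*Fndc1*, and 11 of 11 is not an independent count. In the fit with no filter, all 12 hepatocyte markers were called higher. Of the 8 cardiomyocyte, 6 adipocyte and 5 macrophage markers, 5, 6 and 4 were below the filter, and the 4 tested (*Myh6*, *Gata4*, *Nppb* and *Cd68*) were not called. Of 5 smooth muscle markers, *Cnn1* was higher, *Smtn* and *Lmod1* were lower, and together they summed to 71.3 to 79.3 FPKM in control libraries and to 66.0 to 74.6 FPKM after knockdown. None of these 3 calls remained with the length and GC trend removed, and *Cnn1* and *Lmod1* lost theirs in 14 and 9 of 22 alternatives. In such bulk samples fewer myotubes and less RNA per myotube cannot be told apart.

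Knockdown of *Fndc1* left 3 of the 9 scaffold transcripts lower and none higher. *Ttn* and *Neb* fell the most, by 27.1% and 26.6% in mean FPKM, and *Actn3*, the fast-fibre alpha-actinin, fell by 14.0%. The other 6 did not pass the test. Among all tested genes 34.4% were called, 17.2% as lower and 17.3% as higher, so the 3 called of 9 members were about the share of the whole table. The median log2 fold change was -0.11 over the members and 0.00 over all tested genes.

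**Figure D1:**
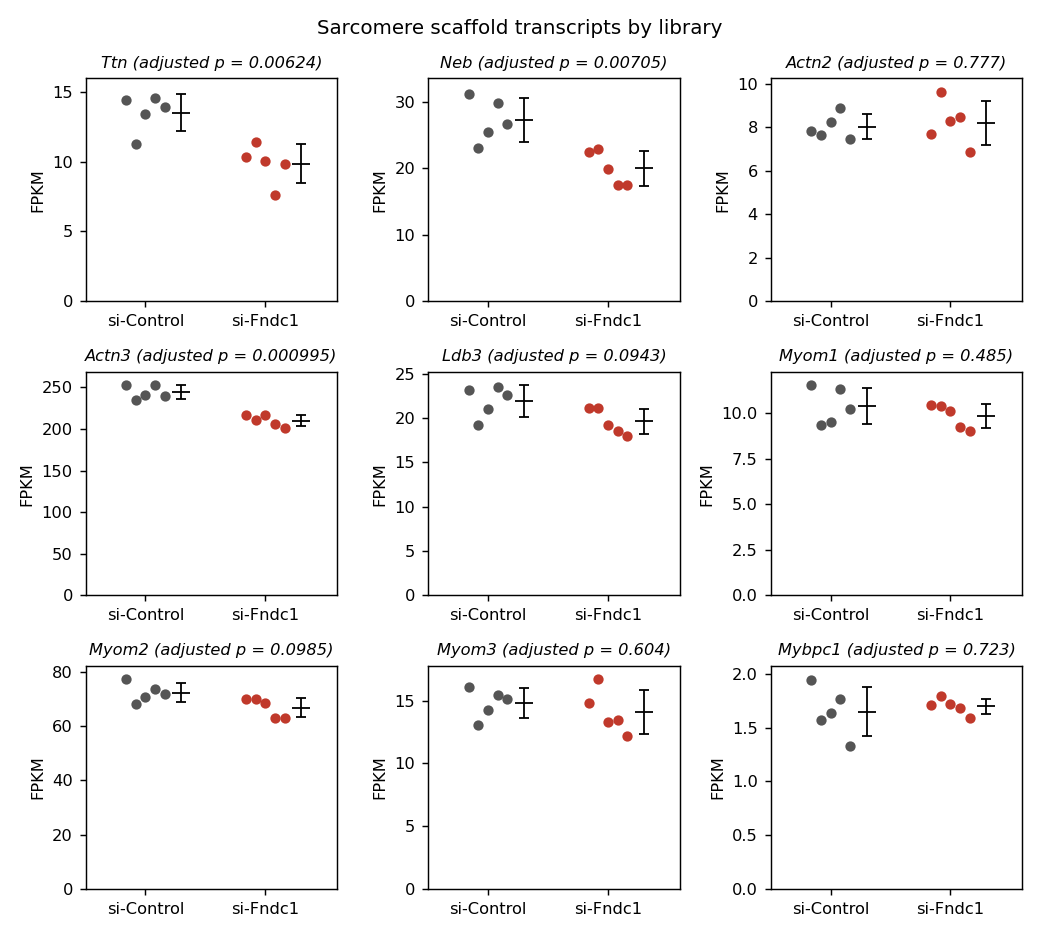
Level of each scaffold transcript in every library, in FPKM (vertical axes start at 0 and differ between panels), with si-Control in grey and si-Fndc1 in red, and bars for the mean and SD of 5 libraries. Neb and Actn3 are the 2 genes whose groups do not overlap, and Ttn overlaps by 1 si-Fndc1 library.

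*Ttn* (ENSMUSG00000051747, listed at chromosome 2, 76534324 to 76812891, minus strand) had 14.41, 11.29, 13.39, 14.53 and 13.94 FPKM in si-Control libraries 1 to 5. In si-*Fndc1* libraries 1 to 5 it had 10.36, 11.42, 10.06, 7.577 and 9.855 FPKM. Of the si-*Fndc1* libraries, 4 lay below every control library, and the overlap came from the second library of each group, the lowest control and the highest si-*Fndc1* library. The mean was 13.51 ± 1.32 FPKM against 9.856 ± 1.41 FPKM, with a log2 fold change of -0.45 (SE 0.10, 95% interval -0.67 to -0.22, edgeR quasi-likelihood test, adjusted p = 0.00624). Because the transcript is so long, this modest level was read from 105010 to 142956 counts in a control library and from 71017 to 108941 counts in a si-*Fndc1* library.

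*Neb* (ENSMUSG00000026950, chromosome 2, 52026659 to 52268486, minus strand), which runs along the thin filament, moved by almost the same amount. Its level was 31.20, 22.96, 25.46, 29.82 and 26.63 FPKM in si-Control and 22.37, 22.83, 19.83, 17.45 and 17.41 FPKM in si-*Fndc1*. The highest si-*Fndc1* library lay just under the lowest control library, so the groups did not overlap in FPKM, although they did in CPM, the counts scaled by library size and edgeR's TMM factor. The log2 fold change was -0.44 (SE 0.10, interval -0.66 to -0.21, adjusted p = 0.00705).

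*Actn3* (ENSMUSG00000006457, chromosome 19, 4911244 to 4927937, minus strand) cross-links actin at the Z-disc of fast fibres. It had 252.8, 234.7, 241.0, 253.0 and 239.9 FPKM in si-Control and 217.1, 210.4, 216.3, 205.9 and 201.0 FPKM in si-*Fndc1*. Every si-*Fndc1* library was below every control library, in FPKM and in CPM. Of the members it was the 1 without overlap in CPM, where 25.1% of all tested genes did not overlap, 12.3% lower and 12.8% higher. The difference was smaller than that of *Ttn* and *Neb* but so was the spread: log2 fold change -0.21 (SE 0.03, interval -0.29 to -0.13, adjusted p = 0.000995). By limma on quantile-normalized log2(FPKM + 1) it was -0.37 (adjusted p = 0.000371). *Neb* and *Actn3* were thus the 2 members whose FPKM groups did not overlap, both lower in si-*Fndc1*, where 25.1% of all tested genes did not overlap in either direction and 13.0% were lower and 12.1% higher without overlap.

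*Actn2* (ENSMUSG00000052374, chromosome 13, 12284312 to 12355641, minus strand), the alpha-actinin of all striated muscle, did not follow *Actn3*. It had 7.810, 7.656, 8.249, 8.900 and 7.481 FPKM in si-Control and 7.677, 9.617, 8.268, 8.459 and 6.882 FPKM in si-*Fndc1*, so the si-*Fndc1* libraries held both the highest and the lowest value. Its log2 fold change was 0.04 (SE 0.09, interval -0.15 to 0.23, adjusted p = 0.777).

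*Ldb3* (ENSMUSG00000021798, chromosome 14, 34248560 to 34310639, minus strand) encodes a PDZ and LIM domain protein that binds alpha-actinin at the Z-disc. Its level was 23.20, 19.26, 21.00, 23.47 and 22.64 FPKM in si-Control and 21.14, 21.10, 19.24, 18.57 and 17.97 FPKM in si-*Fndc1*. The log2 fold change of -0.15 (SE 0.07, interval -0.30 to -0.01) missed the threshold after adjustment (adjusted p = 0.0943). With the second control library left out, the lowest of its group, the value was -0.20 and passed (adjusted p = 0.0242). This was the 1 of 23 alternatives in which *Ldb3* passed.

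None of the 3 myomesins, which cross-link thick filaments at the M-band, passed the test. *Myom2* (ENSMUSG00000031461, chromosome 8, 15107653 to 15183541, plus strand), found in fast fibres, was the most abundant, with 77.41, 67.98, 70.73, 73.58 and 71.65 FPKM in si-Control and 69.73, 69.80, 68.27, 63.09 and 62.90 FPKM in si-*Fndc1*. Its log2 fold change was -0.11 (SE 0.05, adjusted p = 0.0985). *Myom1* (ENSMUSG00000024049, chromosome 17, 71309628 to 71433851, plus strand), the general form, had 10.38 ± 1.01 FPKM in si-Control and 9.838 ± 0.675 FPKM in si-*Fndc1*, with a log2 fold change of -0.07 (SE 0.07, interval -0.22 to 0.09, adjusted p = 0.485). *Myom3* (ENSMUSG00000037139, chromosome 4, 135487026 to 135542875, plus strand) had 14.80 ± 1.20 and 14.08 ± 1.73 FPKM, a log2 fold change of -0.06 (SE 0.09, interval -0.25 to 0.12, adjusted p = 0.604). These intervals leave room for a fall of about the size measured for *Actn3* in *Myom1* and *Myom3*.

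*Mybpc1* (ENSMUSG00000020061, chromosome 10, 88354141 to 88441014, minus strand), the slow-type myosin binding protein C of the thick filament, was the rarest member. It had 1.943, 1.567, 1.633, 1.769 and 1.331 FPKM in si-Control and 1.707, 1.790, 1.718, 1.685 and 1.589 FPKM in si-*Fndc1*, with all si-*Fndc1* libraries inside the control range. Its log2 fold change was 0.05 (SE 0.10, interval -0.16 to 0.26, adjusted p = 0.723), read from 450 to 745 counts in a library.

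Set side by side per length, the control levels followed the order *Actn3*, *Myom2*, *Neb*, *Ldb3*, *Myom3*, *Ttn*, *Myom1*, *Actn2*, *Mybpc1*. The order depends on the gene lengths used for the deposited FPKM, whose source is not stated, so close neighbours could change places with other lengths. *Myom2* stood at the 95.8th percentile of tested genes and *Mybpc1* at the 21.7th. The ranges of neighbours overlapped for *Neb* and *Ldb3*, for *Myom3* and *Ttn*, and for *Ttn* and *Myom1*, although in all 5 control libraries the former of each pair was the higher. In si-*Fndc1*, *Ttn* was above *Myom1* in only 2 of 5 libraries and *Neb* above *Ldb3* in 3 of 5.

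In counts, the scaffold took 0.394% to 0.483% of a control library and 0.316% to 0.397% of a si-*Fndc1* library. *Ttn* alone gave 37.3% to 40.4% of the scaffold's counts in control libraries and 31.3% to 37.6% after knockdown, whereas per length it was a middling transcript and *Actn3* made up 57.9% to 60.5% of the summed FPKM in control libraries and 56.3% to 59.6% after knockdown.

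A ratio of 2 transcripts within a library does not depend on how libraries are scaled. The ratios were not adjusted for the trend of the counts with transcript length that is described below. The 7 ratios of the design were tested by two-sided exact permutation and adjusted over the 7. The smallest p that 5 against 5 libraries can give is 0.00794, which becomes 0.0556 after adjustment if only 1 ratio reaches it, and no ratio passed after adjustment. The ratio of *Ttn* to *Neb* ran from 0.462 to 0.526 in control libraries and from 0.434 to 0.566 in si-*Fndc1* libraries (log2 difference -0.02, exact permutation p = 0.81, adjusted p = 0.944), so no difference in the proportion of the giant transcripts was detectable over the spread between libraries.

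*Mybpc1* to *Ttn* ran from 0.0955 to 0.139 in control libraries and from 0.157 to 0.222 in si-*Fndc1* libraries, without overlap (log2 difference 0.51, exact permutation p = 0.00794, adjusted p = 0.0556). *Actn2* to *Actn3*, the ratio of both sarcomeric alpha-actinins, ran from 0.0309 to 0.0352 in control libraries and from 0.0342 to 0.0457 after knockdown, with overlap (log2 difference 0.24, exact permutation p = 0.0159, adjusted p = 0.0556). Without the fifth si-*Fndc1* library these differences were 0.54 and 0.28, and both passed (exact permutation, adjusted p = 0.0278 each). In 10 of 12 alternatives neither passed. Over the fits with single libraries left out, the adjusted p ran up to 0.111 for *Mybpc1* to *Ttn* and 0.167 for *Actn2* to *Actn3* (exact permutation). *Mybpc1* and *Ttn* differ much in length. In the edgeR fit with the length trend removed, described below, *Mybpc1* was at 0.07 and *Ttn* at -0.31. Where that trend was not held constant at its end, both were at 0.07.

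The sum of both sarcomeric forms over the non-muscle alpha-actinins *Actn1* and *Actn4* was 2.03 to 2.18 and 2.10 to 2.31 (log2 difference 0.04, exact permutation p = 0.27, adjusted p = 0.422), where *Actn3*, *Actn1* and *Actn4* were each called lower. *Ldb3* to *Actn2*, *Myom1* to *Myom2* and *Myom1* to *Myom3* differed by -0.18, 0.04 and 0.00 on the log2 scale (exact permutation p = 0.0794, 0.302 and 0.968). Another 2 ratios were picked after the values were seen and are given without a test. *Ttn* to *Actn2* ran from 1.48 to 1.86 in control libraries and from 0.896 to 1.43 after knockdown, and *Ttn* to *Myom1* from 1.21 to 1.41 and from 0.821 to 1.10.

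**Figure D2:**
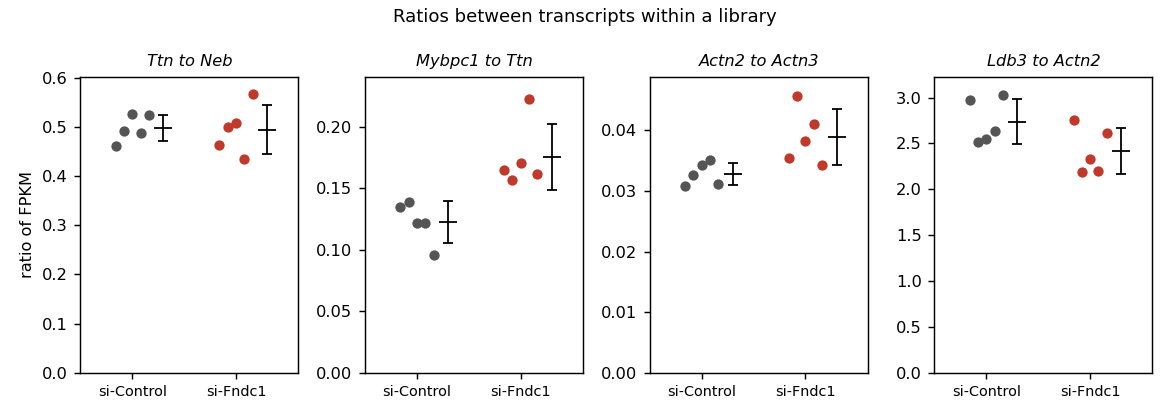
Ratio of FPKM between 2 transcripts in each library (vertical axes start at 0), with si-Control in grey, si-Fndc1 in red, and bars for the mean and SD of 5 libraries. Mybpc1 to Ttn is higher in every si-Fndc1 library than in any control library, and the other 3 ratios overlap between the groups.

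Within a group the members rose and fell together. Over the 36 pairs of members, the correlation of the libraries' deviations from their group means was 0.231 to 0.957, with a median of 0.672, over 10 libraries that share their depth and scaling between members. Pairs of other genes were not examined in this way. The second control library was the lowest of its group for 7 members. The fifth si-*Fndc1* library, which had the fewest counts of all 10 (56332844), was the lowest of its group for 8. That library also had the lowest hepatocyte marker level of its group, 47.5 FPKM. The 5 genes outside the scaffold whose log2 CPM followed the mean of the members most closely over the 10 libraries were *Myh3* (Pearson r 0.983), *Atp2a1* (0.978), *Pfkm* (0.973), *Sntb1* (0.968) and *Patj* (0.963). *Myh3* is the embryonic myosin heavy chain, *Atp2a1* the calcium pump of the fast-fibre sarcoplasmic reticulum and *Pfkm* the muscle phosphofructokinase. Of these, *Atp2a1* was just under the threshold (log2 fold change -0.25, adjusted p = 0.0477), a call lost in 16 of 23 alternatives, and *Myh3* was not called (-0.17, adjusted p = 0.166).

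**Figure D3:**
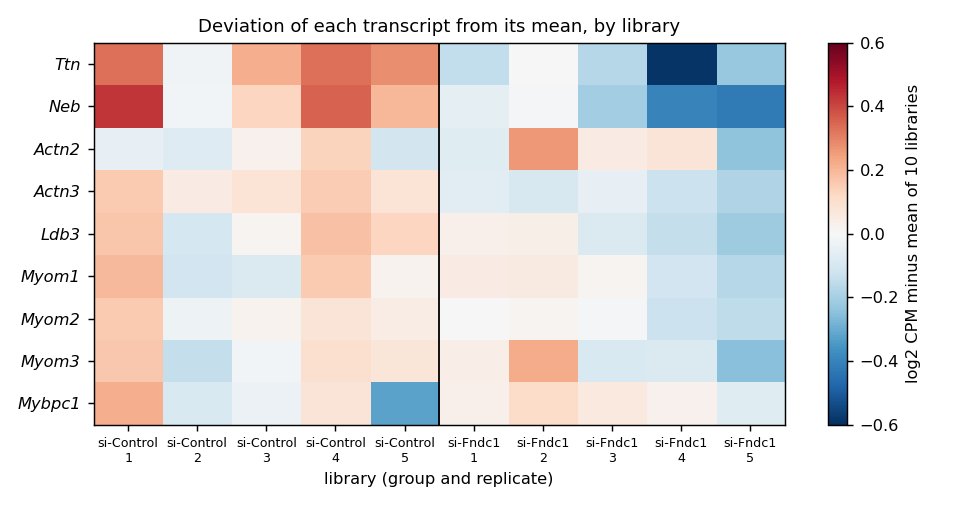
Heat map of log2 CPM minus the mean of the 10 libraries, with 1 row for each scaffold transcript and 1 column for each library, red above and blue below the mean, and a vertical line between the groups. Control libraries 1 and 4 are red for most members, the fifth si-Fndc1 library is blue for all 9, and the darkest blue is Ttn in the fourth si-Fndc1 library.

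The stretch before the transcription start is shown for the 6 of 9 members that have a RefSeq window (build GRCm38.p6). Of these *Ttn* was called and the other 5 were not, and *Neb*, *Actn3* and *Myom2* had no window. Each line gives the 250 bases before the start, 5′ to 3′ on the gene's strand, with capitals marking the E-box (CANNTG, bound by myogenic factors such as MyoD) and the MEF2 site, both searched on both strands. The windows are chr2:76982548-76982797 (minus strand) for *Ttn*, chr13:12340733-12340982 (minus) for *Actn2*, chr17:71019307-71019556 (plus) for *Myom1*, chr4:135759465-135759714 (plus) for *Myom3*, chr14:34588682-34588931 (minus) for *Ldb3*, the former of its 2 overlapping windows, and chr10:88605153-88605402 (minus) for *Mybpc1*.
Ttn: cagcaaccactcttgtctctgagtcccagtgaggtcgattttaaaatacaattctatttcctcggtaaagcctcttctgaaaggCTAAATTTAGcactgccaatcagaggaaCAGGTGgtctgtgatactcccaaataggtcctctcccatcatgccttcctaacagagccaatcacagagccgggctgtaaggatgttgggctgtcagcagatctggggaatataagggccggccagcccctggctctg
Actn2: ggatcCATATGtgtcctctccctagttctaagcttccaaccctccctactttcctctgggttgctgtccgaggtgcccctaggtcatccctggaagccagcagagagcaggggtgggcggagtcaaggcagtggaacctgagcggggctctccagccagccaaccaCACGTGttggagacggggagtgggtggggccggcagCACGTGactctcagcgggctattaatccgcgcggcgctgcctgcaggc
Myom1: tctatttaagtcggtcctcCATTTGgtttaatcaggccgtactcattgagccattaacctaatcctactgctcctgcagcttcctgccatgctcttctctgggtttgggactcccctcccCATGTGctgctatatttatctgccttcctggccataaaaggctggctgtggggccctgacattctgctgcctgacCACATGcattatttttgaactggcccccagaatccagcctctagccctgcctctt
Myom3: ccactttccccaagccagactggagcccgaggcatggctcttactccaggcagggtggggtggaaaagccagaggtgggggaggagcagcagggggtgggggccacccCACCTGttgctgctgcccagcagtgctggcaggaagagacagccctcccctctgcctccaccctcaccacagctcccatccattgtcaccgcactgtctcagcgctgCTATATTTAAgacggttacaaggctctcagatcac
Ldb3: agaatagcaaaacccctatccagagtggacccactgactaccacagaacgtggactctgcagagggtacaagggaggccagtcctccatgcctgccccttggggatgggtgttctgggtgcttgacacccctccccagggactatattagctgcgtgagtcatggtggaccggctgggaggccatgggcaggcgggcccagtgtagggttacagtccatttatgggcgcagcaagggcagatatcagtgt
Mybpc1: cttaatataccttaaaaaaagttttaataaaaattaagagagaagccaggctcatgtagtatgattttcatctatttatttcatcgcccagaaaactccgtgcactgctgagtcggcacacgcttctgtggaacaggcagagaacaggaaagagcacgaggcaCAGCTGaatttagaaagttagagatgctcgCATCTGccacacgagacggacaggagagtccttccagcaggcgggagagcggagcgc

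The *Ttn* window held 1 E-box 138 bases and 1 MEF2 site 166 bases before the start. *Actn2* held 3 E-boxes, at 245, 84 and 48 bases, and *Myom1* held 3, at 231, 130 and 55 bases, beside a CArG box, the serum response factor motif, at 99. *Myom3* held 1 E-box at 142 and 1 MEF2 site at 35 bases. *Mybpc1* held 2 E-boxes, at 87 and 57 bases. *Ldb3*, which moved closely with *Neb* within groups (correlation 0.952), held no E-box and no MEF2 site in either window, and a CArG box at 35 bases in the one shown. E-boxes are common: 66.2% of 32851 such windows held at least 1, whereas 2.9% held the MEF2 site and 1.5% the CArG box. These are matches of letters and not measured binding sites, and a link between them and the levels of the members was not tested.

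The length implied by the count and the FPKM of a gene was 130461 bases for *Ttn*, the longest of 13522 genes, and 29661 for *Neb*, against 11631 for *Myom1*, 9843 for *Myom2*, 6790 for *Ldb3*, 6715 for *Myom3*, 5048 for *Mybpc1*, 4222 for *Actn2* and 3226 for *Actn3*, where the median gene had 4237. Such an implied length need not equal that of the mRNA in the cells. Across genes, which are not independent replicates, longer transcripts tended to be lower in si-*Fndc1* (Spearman rho -0.197), and so did transcripts richer in G and C (rho -0.523 over 11185 genes). Of the 1485 genes of at least 10000 bases, 428 were lower and 151 higher, and 39.0% were called. Their median log2 fold change was -0.07. The next longest gene after *Ttn*, *Dst* with 46279 bases, had a log2 fold change of -0.43 (adjusted p = 0.000328). The genes that followed *Dst* in length, down to 35859 bases, ranged from -0.64 to 0.12, and not all of them were called.

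**Figure D4:**
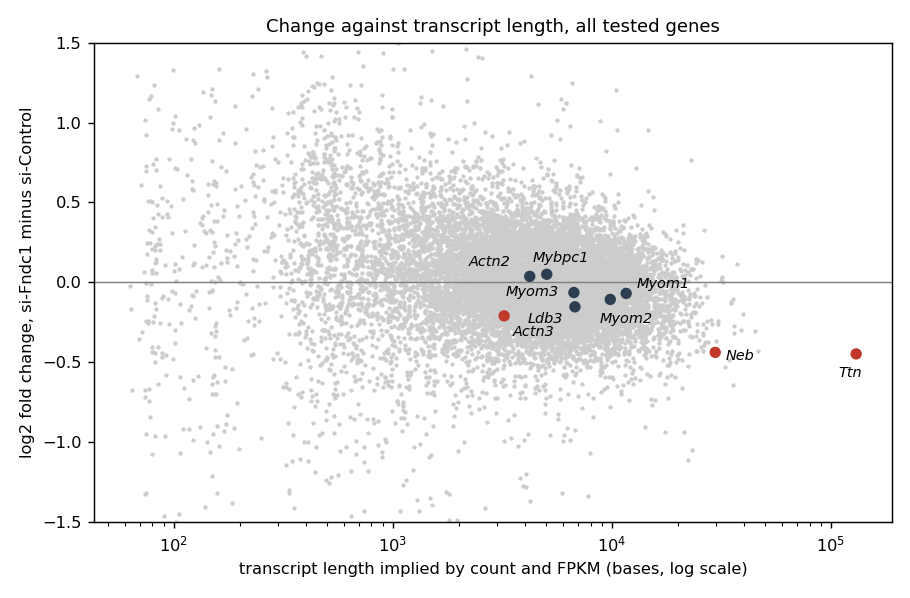
Log2 fold change of si-Fndc1 over si-Control against implied transcript length in bases (logarithmic axis), 1 point for each of 13522 tested genes, with the members labelled, the 3 called members in red and the other 6 in dark blue. Ttn lies alone at the far right, and 146 genes lie beyond 1.5 in either direction, outside the axis.

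After a trend of the counts with length had been removed in each library, *Ttn* was at -0.31 (adjusted p = 0.0131), *Neb* at -0.30 (adjusted p = 0.0121) and *Actn3* at -0.22 (adjusted p = 0.00104), and no other member was called, among 35.0% of genes called and 17.5% called lower in that fit. After a trend with length and GC content had been removed, *Ttn* was at -0.29 (adjusted p = 0.0226) and *Neb* at -0.29 (adjusted p = 0.0186), whereas *Actn3*, the member richest in G and C with 57.0%, was at -0.10 and no longer passed (adjusted p = 0.0779). In that fit 22.9% of 11185 genes were called, 11.4% as lower, and 2 of the 9 members were lower. These trends were held constant beyond the 99th percentile of length, 19825 bases. When the length trend of the fit without GC content was not, *Ttn*, the one gene at its length, was itself the end of the fitted curve. It came out at 0.07 (adjusted p = 0.502), while *Neb* was at -0.25 (adjusted p = 0.0243). The fit with length and GC content was not run in this way. The length-adjusted value of *Ttn* thus changed with how the trend was continued to a length at which no other gene was measured.

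**Figure D5:**
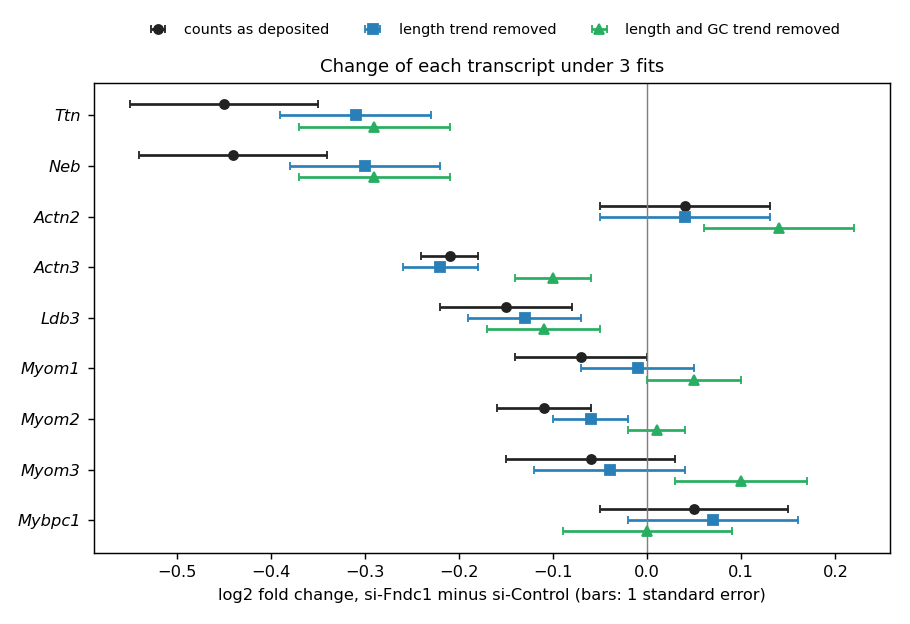
Log2 fold change of si-Fndc1 over si-Control for each member in 3 fits, of the counts as deposited (black), with the length trend removed (blue) and with the length and GC trend removed (green), with bars of 1 standard error. Ttn and Neb stay farthest below 0 in all 3, and Actn3 moves from -0.21 to -0.10 once both trends are removed.

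The partners of the scaffold did not move as 1 group. Among 19 tested Z-disc partners, 6 were lower, 2 higher and 11 not called, with a median of 0.06. The 3 with the smallest p were all lower: the formin *Fhod3*, which helps actin assembly (8.202 ± 0.374 to 6.670 ± 0.219 FPKM, log2 fold change -0.29, adjusted p = 0.00029), the filamin *Flnc* (83.81 ± 4.87 to 62.66 ± 6.61 FPKM, -0.41, adjusted p = 0.00123) and the titin-binding ankyrin repeat protein *Ankrd2* (97.89 ± 4.49 to 84.65 ± 3.06 FPKM, -0.20, adjusted p = 0.00312). With the length and GC trend removed, *Flnc* was at -0.11 (adjusted p = 0.12) and 3 partners were lower and 3 higher.

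Of 12 tested partners at the M-band and thick filament, 3 were higher, 3 lower and 6 not called, with a median of -0.08. *Smpx*, a small muscle protein, rose from 11.01 ± 0.694 to 19.59 ± 0.960 FPKM (log2 fold change 0.84, adjusted p = 7.93e-06) and *Fhl2*, a LIM protein that binds titin, from 13.33 ± 0.345 to 17.32 ± 0.964 FPKM (0.38, adjusted p = 0.000184). *Speg*, a muscle kinase related to obscurin, fell from 9.226 ± 0.336 to 6.721 ± 0.317 FPKM (-0.45, adjusted p = 3.83e-05), and was at 0.00 (adjusted p = 0.961) with the length and GC trend removed.

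Among 10 tested genes of thin filament length and nascent myofibrils, 4 were lower, 1 higher and 5 not called, with a median of -0.14. *Klhl41*, a kelch protein that stabilises nebulin, had 96.73 ± 4.12 FPKM in si-Control and 110.2 ± 4.46 FPKM in si-*Fndc1* (log2 fold change 0.20, adjusted p = 0.00257), the opposite direction to *Neb*. *Lasp1*, a nebulin-family actin-binding protein, and *Klhl40*, a relative of *Klhl41*, were lower (-0.16, adjusted p = 0.00949, and -0.17, adjusted p = 0.0222). No gene of this list was called with the length and GC trend removed, where *Klhl41* was at -0.01, and by limma it was at 0.07 and not called.

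Of the 10 chaperones of myofibril assembly and regulators of titin splicing, 3 were lower, 1 higher and 6 not called, with a median of -0.03. The small heat shock protein *Cryab* rose from 81.16 ± 2.51 to 105.1 ± 5.52 FPKM (log2 fold change 0.38, adjusted p = 9.06e-05). *Rbm20*, the splicing repressor that sets which titin exons are kept, was at 14.12 ± 0.738 FPKM in si-Control and 12.58 ± 0.419 FPKM in si-*Fndc1* (-0.16, adjusted p = 0.011), and *Rbm38*, another RNA-binding protein, at 16.27 ± 2.53 and 10.64 ± 2.13 FPKM (-0.60, adjusted p = 0.0101). With the length and GC trend removed *Rbm20* was at -0.06 (adjusted p = 0.258) and *Rbm38* at -0.39 (adjusted p = 0.0929), neither called. Counts per gene do not show which exons of *Ttn* were used.

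A list of 8 non-muscle actinins and other non-sarcomeric genes, all tested, is a mixed set and not 1 gene family. Of these, 6 were lower and none higher, with a median of -0.23: *Flna*, the widespread filamin (182.7 ± 4.29 to 144.2 ± 5.09 FPKM, log2 fold change -0.33, adjusted p = 3.34e-05), *Actn4* (51.40 ± 0.963 to 42.55 ± 1.15 FPKM, -0.27, adjusted p = 8.37e-05) and *Actn1* (68.44 ± 2.13 to 58.31 ± 2.41 FPKM, -0.22, adjusted p = 0.000843) led them. With the length and GC trend removed these 3 were still lower, and they were the 3 of the list that were.

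Of the 15 general markers of myotubes, 5 were higher, 2 lower and 8 not called, with a median of -0.04, whereas limma on quantile-normalized log2(FPKM + 1) called 1 higher and 7 lower. The split in direction turned with the test and scaling, so no direction is given for these markers as a group. The fast myosin light chain *Mylpf* rose from 1971 ± 94.3 to 2619 ± 101 FPKM (log2 fold change 0.42, adjusted p = 4.96e-05), the muscle creatine kinase *Ckm* from 66.32 ± 3.29 to 86.19 ± 4.88 FPKM (0.39, adjusted p = 0.000201) and *Myod1*, a myogenic transcription factor, from 41.93 to 46.71 FPKM (0.16, adjusted p = 0.0162). By limma *Mylpf* was at 0.12 and *Myod1* at 0.10, neither called. Of 9 markers of undifferentiated or dividing myoblasts, *Myf5* and *Id1* were not called and 1 was, *Cdk1*, which rose from 2.622 to 3.468 FPKM (0.41, adjusted p = 0.0137), and together they summed to 40.0 to 45.7 FPKM in control libraries and 40.7 to 46.6 FPKM after knockdown.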

How the data were processed

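RNA-sequencing of 5 si-Control and 5 si-*Fndc1* libraries of C2C12 cells was analysed, with groups and replicate numbers taken from the sample titles. The authors deposited raw read counts per gene and, beside them, FPKM values, and how the FPKM were computed and whether counting used the strand is not stated. Sources differ on the processing: the paper's methods name TopHat, mm10 and htseq-count for counting, the series text STAR and mm9, and the submitters' processing notes cutadapt 1.9, FastQC and GRCm39. Coordinates were given as the table lists them, which names no build. They do not line up with the windows before the transcription start, which are on GRCm38.p6. For *Ttn*, on the minus strand, the listed gene ends at 76812891 and the window starts at 76982548. Positions from both sets should therefore not be set side by side. The paper's methods name fewer libraries than were deposited, and all 10 were used.

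Counts were tested with edgeR 4.0.16 (quasi-likelihood, TMM) in R 4.3.3 for genes with a mean of at least 0.5 FPKM, adjusted by Benjamini-Hochberg over all tested genes and called at an adjusted p under 0.05. Alternatives were DESeq2 1.42.0, limma 3.58.1 on quantile-normalized log2(FPKM + 1), other scalings and filters, a replicate block, leaving out each library, and offsets that removed a trend of log counts (0.5 added) with implied length and GC content (splines of 5 degrees of freedom, Huber regression, covariates held beyond the 1st and 99th percentiles). GC content came from transcripts of build NCBIM37, matched for 82.6% of tested genes. The steps were tested on simulated data. Ratios of FPKM were tested by two-sided exact permutation in Python 3.11.15 with scipy 1.17.1.

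The text names the 9 members, *Fndc1*, up to 3 tested genes with the smallest p in each of 12 lists (the macrophage list had 1 tested gene and the adipocyte list 0), and the 5 genes most correlated with the members. Members and lists were chosen with earlier results of these data known. The ratios of *Ttn* to *Myom1* and to *Actn2* were added after values were seen and were not tested, and *Dst* was named for its length.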

Additional observations from a re-analysis of the deposited data

Results flagged for a closer look

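Among 36 groups of 5 libraries examined for a library far from the others, 1 stood out: the ratio of *Mybpc1* to *Ttn* was 0.222 in the fourth si-*Fndc1* library, against 0.157 to 0.171 in the other 4 (Dixon's gap over range 0.787). Chance flags about 1 in 20 such groups. That library had the lowest *Ttn* level of all 10, 7.577 FPKM, and a *Mybpc1* level inside the range of its group, 1.685 FPKM.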

How the results depend on the processing

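Without the second control library *Ldb3* passed, at -0.20, and without single libraries *Ldb3* ranged from -0.20 to -0.12 and the log2 differences of *Actn2* to *Actn3* from 0.18 to 0.28 and of *Mybpc1* to *Ttn* from 0.43 to 0.56 (exact permutation, adjusted p = 0.0278 to 0.167 and 0.0278 to 0.111). Adjusted over 9 ratios, with the 2 picked after the values were seen, which adds small p-values to the family, these differences of 0.24 and 0.51 would pass (exact permutation, adjusted p = 0.0357 and 0.0238). Genes called ranged from 4000 to 4627 with single libraries left out, against 4663, and from 1669 to 5019 over all 23 alternatives. With the length and GC trend removed, 2556 genes were called among 11185 (1285 higher, 1271 lower), and *Actn3* was at -0.10, while the same genes with no trend removed, added after seeing the data, gave 4244 calls. *Klhl41* was then at -0.01, *Lasp1* at 0.03, *Speg* at 0.00 and *Myf5* at -0.20, each turned in sign. Same-numbered libraries did not deviate together (correlations of -0.0486 to 0.046, and 1 of 5 control libraries correlated best with its own number). No pairing by number was thus detectable, which does not show whether such libraries were handled together. A replicate block called 3572 genes and left *Ttn*, *Neb* and *Actn3* lower (adjusted p = 0.0324, 0.0233 and 0.00962). With the block and the length and GC trend removed, 1669 genes were called (855 higher, 814 lower), *Ttn* was at -0.30 (adjusted p = 0.0648) and *Actn3* at -0.09 (adjusted p = 0.122), and *Neb* was the 1 member lower, with *Klhl41* at -0.01, *Lasp1* at 0.03 and *Speg* at 0.00. With the length trend not held constant beyond its 99th percentile, an alternative chosen after seeing the data, *Ttn* was at 0.07. In all, 1744 of 1921 values kept their side of the threshold or, for counts of genes, moved little. These include values not called in either fit that changed sign, such as *Actn2* (-0.03 to 0.14) and *Myom1* (-0.11 to 0.06). A library held at least 71017 counts of *Ttn* and at least 450 of *Mybpc1*, so counting error bears most on *Mybpc1*.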
